A study of Homo sapiens with 6 samples.

Results

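The Tribbles genes TRIB3, TRIB1 and TRIB2 were described in U2OS cells after silencing of CCAR2. All probes that carry one of these symbols were taken, which gave 3 probes for 3 genes out of the 47321 probes of the array, and all 3 genes were among the 12013 genes tested. U2OS is a human osteosarcoma line, and CCAR2 encodes a nuclear protein known as a partner and inhibitor of the deacetylase SIRT1. Cells received either 4 pooled siRNAs that target CCAR2 (siCCAR2, arrays D, E and F) or a control siRNA (siLUC, arrays A, B and C), and total RNA was taken 6 days later and hybridized to Human HT12_v4 bead arrays. The array letters stand for sections of the chip. All 6 arrays lay on 1 chip, with each condition in sections of its own, so position on the chip and silencing cannot be told apart. The groups hold 1 cell line, 1 siRNA pool and 1 time, and the siRNAs of the pool were not measured one by one.

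Tribbles proteins are pseudokinases. They keep the fold of a protein kinase but have weak or no catalytic activity, and act as scaffolds through a C-terminal tail that holds a docking site for the ubiquitin ligase COP1 and another for MAP kinase kinases. TRIB1 and TRIB2 bring the transcription factor C/EBPα to COP1 for degradation, and TRIB3 is known for binding the kinase AKT and for its induction by ATF4 and CHOP (DDIT3) when the phosphorylation of eIF2α slows translation under amino acid shortage or endoplasmic reticulum stress.

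TRIB3 lies on chromosome 20 (chr20:380760-397559, GRCh38.p14), TRIB1 on chromosome 8 (chr8:125430358-125438403) and TRIB2 on chromosome 2 (chr2:12716936-12742734). The probes were ILMN_1787815 for TRIB3, ILMN_1803811 for TRIB1 and ILMN_1714700 for TRIB2, and the exon that each one reads was not analysed here. Each probe was detected in all 6 arrays at a detection p under 0.01. Values below are log2 bead signals after quantile normalization between arrays. They compare arrays for 1 probe and are not comparable between probes.

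CCAR2, the targeted gene, had log2 signals of 9.88, 9.96 and 9.91 in siCCAR2 arrays D, E and F, against 11.43, 11.34 and 11.01 in siLUC arrays A, B and C. Its mean fell by 1.34 on the log2 scale (2.53-fold lower, adjusted p = 0.0394, limma with Benjamini-Hochberg adjustment), and the 3 siCCAR2 arrays lay within 0.085 of each other. The share of probes detected per array was 37.2% to 41.0%, lowest in siLUC array B and highest in siLUC array C. Of 10 mesenchymal and osteoblast markers 7 were detected in all 6 arrays, while COL1A2 and the osteoblast factor SP7 were detected in none. Of 7 blood and endothelial markers 0 were detected in all 6 arrays, and of 6 epithelial markers EPCAM, KRT8 and KRT18 were, with CDH1, KRT19 and CLDN4 detected in none.

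TRIB3 had the higher signal in every siCCAR2 array. Its log2 signals were 10.53, 10.34 and 11.37 in siCCAR2 arrays D, E and F, against 9.99, 9.79 and 10.00 in siLUC arrays A, B and C, which correspond to non-normalized bead signals of 1361, 1467 and 2147 in siCCAR2 arrays and 1095, 788 and 1216 in siLUC arrays. The groups did not overlap after normalization, and 0.34 separated the lowest siCCAR2 array (E) from the highest siLUC array (C). The siCCAR2 arrays were spread over 1.04 with array F on top, whereas the siLUC arrays spanned 0.21.

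**Figure D1:**
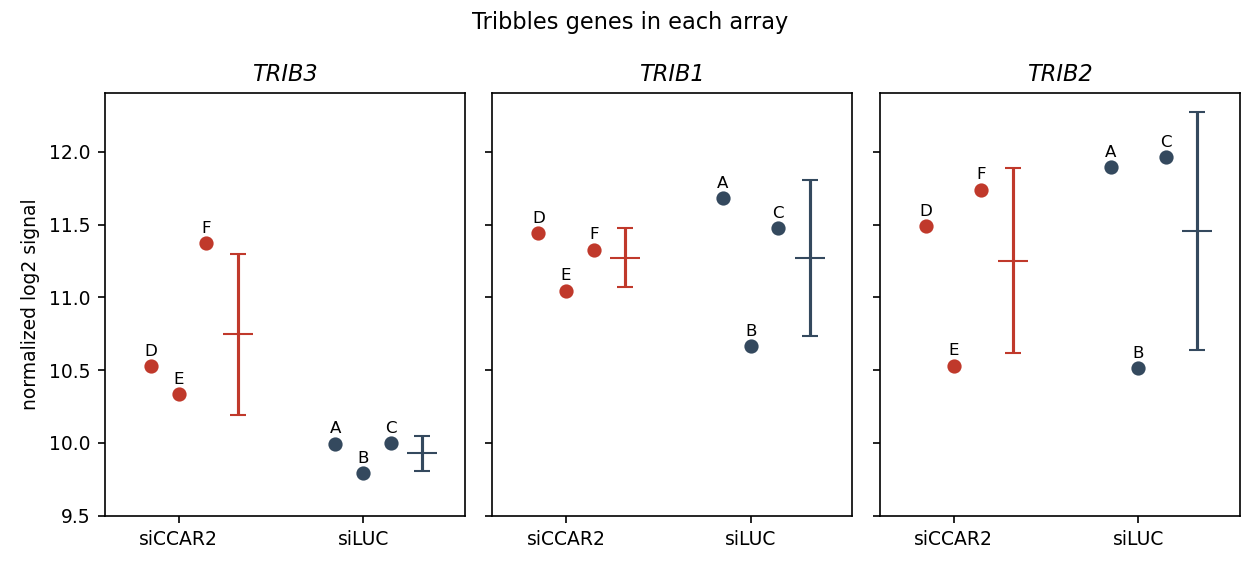
Quantile-normalized log2 bead signal (vertical axis) of TRIB3, TRIB1 and TRIB2 in each array, with siCCAR2 arrays (D, E, F) in red and siLUC arrays (A, B, C) in dark blue, and a bar for the mean ± SD of 3 arrays. TRIB3 lay at 10.34 or above in siCCAR2 arrays and at 10.00 or below in siLUC arrays, whereas both groups overlapped for TRIB1 and TRIB2, which were lowest in arrays E and B.

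TRIB3 averaged 10.74 ± 0.55 in siCCAR2 cells and 9.93 ± 0.12 in siLUC cells (SD, n = 3 each), a log2 fold change of 0.82 or 1.76-fold (SE 0.25, 95% CI 0.25 to 1.38). In the fit of all genes by limma this difference did not pass the threshold (unadjusted p = 0.00999, adjusted p = 0.767). Genes were called where they differed by 1.5-fold or more with an adjusted p of 0.05 or less, which 3 of 12013 genes (0.025%) did, and TRIB3, TRIB1 and TRIB2 were not among them. A 1.5-fold or higher signal in siCCAR2, with no test, was seen for 1.1% of genes, and an unadjusted p under 0.05 for 3.49% of genes in the higher and 3.01% in the lower direction. The two-sided exact permutation test over arrays gave TRIB3 p = 0.1, the smallest value that 3 arrays against 3 allow. Of all genes tested, 6.35% were higher in siCCAR2 with no overlap between the groups. TRIB3 had the 49th highest log2 fold change and the 144th smallest p among 12013 genes. Some markers differed between the same groups. The keratin genes KRT8 (log2 fold change 0.52) and KRT18 (0.32) were higher in siCCAR2 with no overlap between groups, whereas EPCAM was at -0.03 with overlapping groups. The summed normalized signal of these 3 epithelial markers was 1464 to 1761 in siCCAR2 arrays and 1140 to 1315 in siLUC arrays. That of the 8 mesenchymal and osteoblast markers tested was 32595 to 33599 in siCCAR2 arrays and 39136 to 40095 in siLUC arrays, and such sums are dominated by the brightest probes, here VIM (-0.18). The matrix gene SPARC fell by 1.71 on the log2 scale (adjusted p = 0.0394, limma). CD44 (-0.03), COL1A1 (-0.09), RUNX2 (-0.12), FN1 (-0.17), ALPL (-0.50) and BGLAP (0.06) had smaller differences that did not pass the test. Of these 8 markers, 7 were below 0. SPARC and VIM were lower with no overlap between groups, as were 5.68% of all genes. The part of the markers in the TRIB3 difference was not tested. In these bulk samples, a change in the share of cells that express a gene and a change in its RNA per cell cannot be told apart.

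TRIB3 was called only where arrays were treated as pairs, and not under every normalization. No label pairs the arrays. The study calls its own comparison paired and its experiment a triplicate, without naming the pairs. The deviations of arrays from their group means correlated between D and A (0.615), E and B (0.665) and F and C (0.440), and this was the only one of 6 possible pairings with all 3 correlations above 0.1. With this pairing as a replicate block, TRIB3 rose in siCCAR2 (log2 fold change 0.82, SE 0.16, 95% CI 0.48 to 1.15, adjusted p = 0.0137, limma), among 200 genes called (1.66%), of which 120 (0.999%) were higher and 80 (0.666%) lower. TRIB3 was higher by 0.53 in D than in A, by 0.55 in E than in B and by 1.37 in F than in C. With the same block the call was lost after neqc background correction (adjusted p = 0.107), after median scaling (0.166) and without the pair F and C (0.0590). Which arrays pair was read from the same arrays, and under the other 5 pairings 0 to 15 genes were called and the adjusted p of TRIB3 was 0.197 to 0.9999.

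Array F carried much of the size of the TRIB3 difference. Without F the log2 fold change was 0.50 (adjusted p = 0.993, limma), and leaving out any other single array gave 0.75 to 1.02. CCAR2 itself was at 9.91 in array F, within 0.085 of arrays D and E, and the order of these arrays for CCAR2 differed after median scaling, where F was lowest (9.74, against 9.81 in D and 10.02 in E).

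The means of TRIB1 were nearly equal. Its log2 signals were 11.44, 11.05 and 11.33 in siCCAR2 arrays D, E and F and 11.68, 10.66 and 11.47 in siLUC arrays A, B and C, and the siCCAR2 arrays lay inside the range of the siLUC arrays. The means were 11.27 ± 0.20 in siCCAR2 cells and 11.27 ± 0.54 in siLUC cells (SD, n = 3 each). The log2 fold change was -0.00083 with a 95% CI of -0.58 to 0.57 (adjusted p = 0.9998, limma), so a change within that interval was not excluded by this fit. With the block of arrays the interval was -0.30 to 0.30.

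TRIB2 was the most variable member. Its log2 signals were 11.49, 10.53 and 11.74 in siCCAR2 arrays D, E and F, against 11.90, 10.51 and 11.96 in siLUC arrays A, B and C. Arrays E and B were low in both conditions and the groups overlapped over most of their range. Its within-group SD of 0.73 exceeded that of 98.7% of genes tested, while those of TRIB1 (0.41) and TRIB3 (0.40) exceeded 92.2% and 91.8%. TRIB2 averaged 11.25 ± 0.64 in siCCAR2 cells and 11.46 ± 0.82 in siLUC cells (SD, n = 3 each), with a log2 fold change of -0.20 (SE 0.42, 95% CI -1.16 to 0.75, adjusted p = 0.947, limma). With the block, the interval narrowed to -0.48 to 0.07 (adjusted p = 0.436), and the differences within pairs were -0.41 for D and A, 0.02 for E and B and -0.22 for F and C.

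To set the members against each other, the difference of their log2 signals was taken within each array, and each value was expressed relative to the mean of the siLUC arrays. TRIB3 minus TRIB1 was 0.43, 0.63 and 1.39 in siCCAR2 arrays D, E and F, against -0.34, 0.47 and -0.13 in siLUC arrays A, B and C, so the change of TRIB3 exceeded that of TRIB1 by 0.82 on the log2 scale. TRIB3 minus TRIB2 was 0.57, 1.33 and 1.16 in siCCAR2 arrays and -0.37, 0.81 and -0.43 in siLUC arrays, a difference of 1.02. The groups overlapped in both contrasts through arrays B and D alone. TRIB1 minus TRIB2 was 0.14, 0.70 and -0.23 in siCCAR2 arrays and -0.03, 0.34 and -0.30 in siLUC arrays, a difference of 0.20. The two-sided exact permutation test gave p = 0.2 for each contrast with TRIB3 and p = 0.6 for TRIB1 minus TRIB2 (adjusted over the 3 contrasts, 0.3, 0.3 and 0.6). Within the pairs D and A, E and B, and F and C, TRIB3 minus TRIB1 was higher in siCCAR2 by 0.77, 0.16 and 1.52, and TRIB3 minus TRIB2 by 0.94, 0.53 and 1.59. All of these had 1 sign, and the exact sign-flip test over 3 pairs gave p = 0.25, the smallest it allows. Neither test can pass 0.05 with this number of arrays, so a difference between TRIB3 and the other members was not shown and not excluded by them. With 1 array left out, the difference was 0.53 to 1.05 against TRIB1 and 0.80 to 1.42 against TRIB2, in both cases highest without array B.

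**Figure D2:**
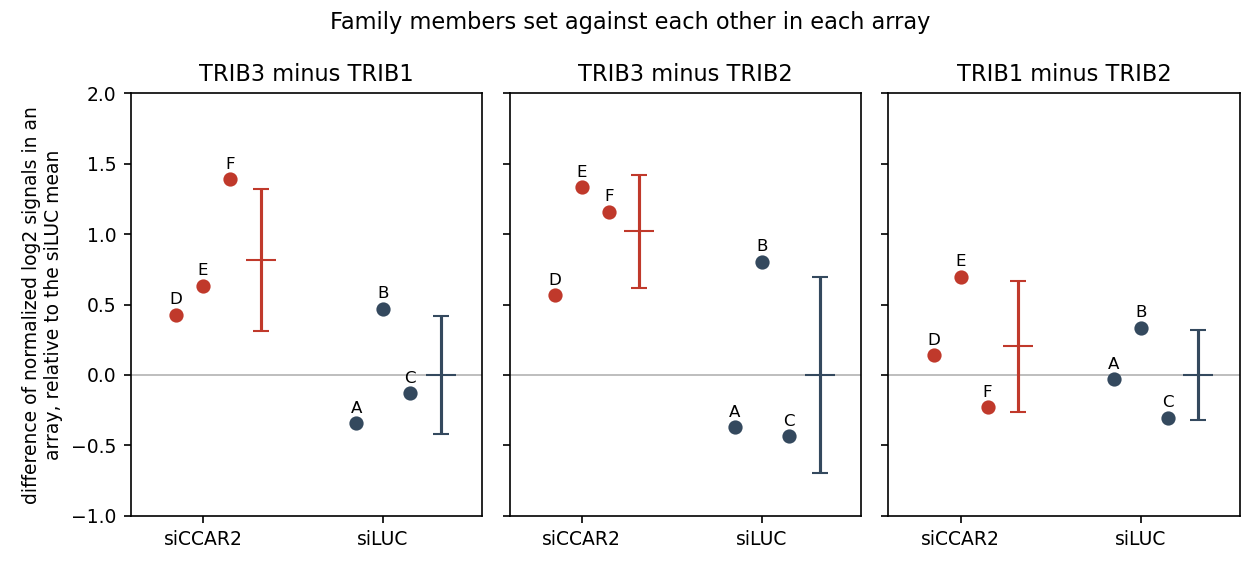
Difference of the log2 signals of 2 members in each array, relative to the mean of the siLUC arrays (vertical axis), for siCCAR2 arrays (red) and siLUC arrays (dark blue), with bars for the mean ± SD of 3 arrays. The siCCAR2 arrays averaged 0.82 above the siLUC arrays for TRIB3 minus TRIB1 and 1.02 for TRIB3 minus TRIB2, and siLUC array B lay above siCCAR2 array D in both.

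TRIB1 and TRIB2 were low in the same arrays. Over the 6 arrays, TRIB1 and TRIB2 correlated at Pearson's r = 0.897 (two-sided exact permutation p = 0.0167, adjusted over 3 relations 0.05) and Spearman's rho = 0.886 (exact p = 0.0333, adjusted 0.1). Both were lowest in arrays B and E, and without these arrays r was 0.419, so the relation rested on them. The permutation took all 6 arrays as independent, with no account of condition or pairs. Arrays B and E form 1 of the pairs read from the correlations of deviations, so p may be too small. TRIB3 had r = 0.206 with TRIB1 (exact permutation p = 0.671, adjusted 0.693, rho = 0.029) and r = 0.260 with TRIB2 (exact permutation p = 0.693, adjusted 0.693, rho = 0.143). Without arrays B and F these were -0.514 with TRIB1 and -0.594 with TRIB2. Arrays B and E also had the fewest detected probes (37.2% and 38.3%), but E was close to D (38.6%) and A (38.7%). The part of detection in the relation was not tested.

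The direction of the TRIB3 difference was the same under all 29 alternatives run, with log2 fold changes of 0.50 to 1.02. The log2 fold change of TRIB1 was above 0 under 7 of 29 alternatives and that of TRIB2 under 3 of 29. Many of the alternatives could not move these values. With 1 probe per member, other filters and probe choices leave the log2 fold change as it is. A variance trend and a block of all arrays alter the SE and not the difference. The counts therefore overstate how often the directions were put to a test.

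**Figure D3:**
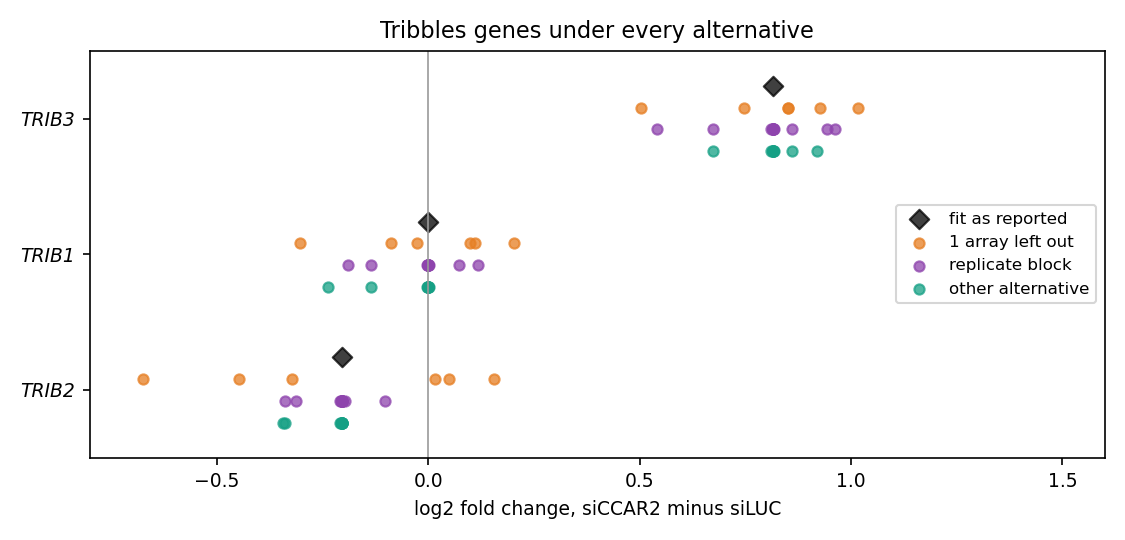
Log2 fold change, siCCAR2 minus siLUC (horizontal axis), of TRIB3, TRIB1 and TRIB2 in the reported fit (diamond) and under alternatives that leave out 1 array (orange), add a replicate block (purple) or change another setting (green). TRIB3 stayed between 0.50 and 1.02, whereas TRIB1 (-0.30 to 0.20) and TRIB2 (-0.67 to 0.16) fell on both sides of 0.

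Candidates were genes detected in all 6 arrays with an SD over arrays of at least 0.2. The 5 whose signals were most like those of each member were named, as a description over 6 arrays that share chip and condition. For TRIB3 these were PEX6 (r = 0.989), a peroxisome biogenesis ATPase, EEF1D (0.980), a translation elongation factor subunit, ROGDI (0.976), INHBE (0.975), an inhibin subunit, and GAGE12G (0.970). INHBE had log2 signals of 7.98, 7.69 and 8.94 in siCCAR2 arrays and 7.34, 7.48 and 7.53 in siLUC arrays, with array F on top as for TRIB3. For TRIB1 they were GPR3 (0.986), the fatty acid elongase ELOVL6 (0.984), the prion protein gene PRNP (0.982), RNF170 (0.982) and ARL6IP5 (0.981).

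For TRIB2 the most similar genes were INSIG1 (0.992), which retains the sterol sensor SCAP in the endoplasmic reticulum, FBN2 (0.992), a fibrillin, IFNAR2 (0.992), an interferon receptor subunit, the desaturase SCD5 (0.990) and SENP7 (0.990). INSIG1 had log2 signals of 10.66, 9.76 and 10.66 in siCCAR2 arrays and 10.93, 9.75 and 10.95 in siLUC arrays, with the same low arrays E and B as TRIB2. An r above 0.9 was reached with 53 of 5150 genes (1.03%) for TRIB3, 181 (3.51%) for TRIB1 and 286 (5.55%) for TRIB2.

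The regulators of TRIB3 came next. Transcription factors known at the TRIB3 promoter all had log2 fold changes above 0 (7 of 7 tested), with a median of 0.34. For comparison, 50.9% of all genes were above 0, and the median of all genes was 0.0042. The list was chosen with earlier results of these data known, so its count is a description and not a test. NUPR1, a stress-induced chromatin protein, had log2 signals of 9.62, 9.63 and 10.46 in siCCAR2 arrays D, E and F, against 9.03, 9.32 and 8.60 in siLUC arrays A, B and C. The groups of NUPR1 did not overlap, as for 6.35% of all genes in that direction. Its log2 fold change of 0.92 was called with the block (adjusted p = 0.0357, limma), as were 1.66% of all genes, and not without it (0.747). DDIT3, which encodes CHOP, had 8.89, 8.85 and 9.68 in siCCAR2 arrays and 8.87, 8.63 and 8.85 in siLUC arrays. Its groups overlapped only in that array A lay above array E, with array F apart (log2 fold change 0.36, adjusted p = 0.824). ATF3, a partner of these factors, had 9.37, 9.81 and 10.17 in siCCAR2 arrays and 8.98, 10.07 and 8.97 in siLUC arrays (0.45, adjusted p = 0.832), with siLUC array B among the high values.

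ATF4 itself, which is controlled largely by translation, had log2 signals of 8.73, 8.53 and 8.29 in siCCAR2 arrays and 8.39, 8.76 and 8.24 in siLUC arrays. The groups of ATF4 overlapped fully (log2 fold change 0.06, adjusted p = 0.965, limma). CEBPG, ATF5 and CEBPB had log2 fold changes of 0.34, 0.18 and 0.11. CEBPB is also a listed substrate of COP1.

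Other targets of ATF4, a list chosen in the same way, were also all above 0 (11 of 11 tested, median 0.29). The groups of 1 of them, the stress-induced leucine sensor SESN2, did not overlap, as for 6.35% of all genes in that direction. SESN2 had log2 signals of 7.75, 8.04 and 8.64 in siCCAR2 arrays D, E and F, against 7.59, 7.63 and 7.24 in siLUC arrays A, B and C (log2 fold change 0.66, adjusted p = 0.767 and 0.0795 with the block, limma). Array F was again the highest. CHAC1, which degrades glutathione, had a log2 fold change of 0.44 but was detected in 1 array alone, and PCK2, the mitochondrial PEP carboxykinase, had 0.41. The asparagine synthetase gene ASNS had 0.13, and 0 of the 11 genes were called with or without the block.

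Both medians depended on single arrays. Without siCCAR2 array F the median was 0.17 for the transcription factors and 0.036 for the other ATF4 targets, and without siLUC array A it was 0.19 for the transcription factors and 0.13 for the other targets. The genes of each list were measured in the same arrays and are not independent of each other.

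Because the ATF4 lists hold genes that share a regulator with TRIB3, promoters were read from RefSeq (GRCh38.p14). Each window held 250 bases before to 50 after an annotated start, and not every start of a gene had a window. The windows were searched on both strands for TGATGNAA, a core common to composite sites of ATF4 with C/EBP proteins. The motif was in 1270 of 35116 windows (3.617%), and in a window of 1217 of 27305 genes (4.457%). Of the 17 list genes with a window, 5 held it, namely ATF3, CEBPG, ASNS, CHAC1 and SLC3A2, and 4 of these are shown with 12 bases on either side and the match in capitals, written along the gene's strand. In CHAC1 the motif is on the opposite strand. No TRIB3 or TRIB2 window held these letters, which says only that they are not in these windows, and TRIB1 was not in the table. The bases before the first of 3 TRIB3 starts with a window (chr20:381045-381294, plus strand) and before the TRIB2 start (chr2:12716686-12716935, plus strand) are printed. They show regions searched, with no capitals since nothing matched. The TRIB3 gene begins upstream of all 3 windows, at chr20:380760, and the bases around that position were not searched.
ATF3 (chr1:212565204-212565235, plus strand): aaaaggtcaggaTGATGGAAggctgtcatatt
CEBPG (chr19:33374059-33374090, plus strand): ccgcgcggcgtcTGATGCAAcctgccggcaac
ASNS (chr7:97872457-97872488, minus strand): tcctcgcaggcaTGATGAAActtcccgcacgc
CHAC1 (chr15:40953250-40953281, plus strand): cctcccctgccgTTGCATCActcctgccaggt
TRIB3: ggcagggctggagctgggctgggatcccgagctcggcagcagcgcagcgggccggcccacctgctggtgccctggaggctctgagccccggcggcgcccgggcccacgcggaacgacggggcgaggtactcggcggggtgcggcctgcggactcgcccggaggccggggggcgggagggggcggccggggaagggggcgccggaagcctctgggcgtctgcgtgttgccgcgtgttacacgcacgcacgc
TRIB2: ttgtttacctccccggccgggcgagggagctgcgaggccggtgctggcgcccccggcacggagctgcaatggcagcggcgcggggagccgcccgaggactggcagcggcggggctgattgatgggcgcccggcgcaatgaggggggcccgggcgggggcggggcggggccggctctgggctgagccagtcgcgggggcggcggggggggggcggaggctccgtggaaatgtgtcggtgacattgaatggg

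The TRIB3 and TRIB2 windows were rich in G and C (78.8% of the TRIB3 bases and 76.8% of the TRIB2 bases). A match is a description of letters and was not tested as a binding site.

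Upstream of ATF4, the genes for eIF2α, its kinases and its phosphatase subunits had 3 of 7 log2 fold changes above 0 and a median of -0.07. PPP1R15B, the constitutive subunit that returns the phosphatase to eIF2α, had log2 signals of 7.43, 7.32 and 7.40 in siCCAR2 arrays and 7.75, 7.62 and 7.75 in siLUC arrays. Every siCCAR2 array lay below every siLUC array for PPP1R15B, as for 5.68% of all genes (log2 fold change -0.32, adjusted p = 0.767, limma, 0.180 with the block). PPP1R15B was detected in every array, but its low signals reached into the range of AKT2 (7.05 to 7.43), which was detected in 1 array. The siLUC signals of SESN2 and INHBE reached into that range as well. The stress-induced subunit gene PPP1R15A had 0.17 and EIF2AK3, the gene of the endoplasmic reticulum kinase PERK, -0.18.

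Of the genes whose products the Tribbles proteins bind, the AKT group came close to the median of all genes. AKT1 had log2 signals of 11.37, 10.75 and 11.16 in siCCAR2 arrays and 11.20, 11.09 and 11.38 in siLUC arrays (log2 fold change -0.13, adjusted p = 0.913, limma), with overlapping groups. AKT2 was detected in 1 array. Of 8 kinase and phosphatase genes acting on AKT, 4 were above 0 and 4 below (median -0.03), from -0.36 for PDPK1 (adjusted p = 0.793), which phosphorylates the activation loop of AKT, to 0.11 for the lipid phosphatase INPP4B. RICTOR was not detected.

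The COP1 ligase genes had 4 of 6 log2 fold changes below 0, with a median of -0.12, and 0 of 6 were called. COP1, the subunit that the Tribbles tail docks to, had log2 signals of 11.30, 11.27 and 11.29 in siCCAR2 arrays and 11.52, 11.46 and 11.37 in siLUC arrays. DET1, which links COP1 to the cullin, had 8.70 to 8.71 in siCCAR2 arrays and 8.87 to 9.05 in siLUC arrays. Both lay lower in siCCAR2 with no overlap between groups, as did 5.68% of all genes, and the log2 fold changes were small, at -0.17 for COP1 (adjusted p = 0.839, limma) and -0.27 for DET1 (0.776).

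Of the substrates brought to COP1, 3 of 7 tested were above 0 (median -0.02) and 0 were called. ETV5, an ETS transcription factor, had log2 signals of 11.69, 11.14 and 11.92 in siCCAR2 arrays and 11.83, 10.20 and 11.86 in siLUC arrays, with array B far below the others (log2 fold change 0.29, adjusted p = 0.915, limma). CEBPA and ACACA, which encode the C/EBPα and acetyl-CoA carboxylase substrates, had -0.02 and 0.02.

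Of the MAP kinase kinase and MAP kinase genes, 3 of 8 tested were above 0 (median -0.02). MAP2K2, which encodes MEK2, was called with the block (adjusted p = 0.0402, limma), as were 1.66% of all genes, and not without it (0.747). Its log2 signals were 11.26, 11.05 and 11.18 in siCCAR2 arrays, against 10.60, 10.83 and 10.23 in siLUC arrays, 1.52-fold higher. The groups of MAP2K2 did not overlap, as for 6.35% of all genes in that direction. MAP2K1, the gene of MEK1, was at -0.03 (adjusted p = 0.983). MAPK9, which encodes JNK2, had 7.73, 8.26 and 7.95 in siCCAR2 arrays and 8.20, 8.63 and 8.64 in siLUC arrays (log2 fold change -0.51, 1.43-fold, adjusted p = 0.767, 0.0460 with the block, where it missed the fold threshold), overlapping at arrays E and A.

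Of other reported Tribbles partners, 5 of 11 tested were above 0 (median -0.01), and 1 was called with the block. This was PPARG, the adipogenic nuclear receptor that TRIB3 binds, with log2 signals of 10.53, 10.86 and 11.20 in siCCAR2 arrays D, E and F, against 9.68, 10.09 and 10.34 in siLUC arrays A, B and C. The groups of PPARG did not overlap, and it was 1.78-fold higher (log2 fold change 0.83, adjusted p = 0.00181 with the block and 0.684 without it, limma). BMPR2, a bone morphogenetic protein receptor, had 9.15, 9.32 and 9.08 in siCCAR2 arrays and 9.72, 9.40 and 9.94 in siLUC arrays, also without overlap (-0.50, adjusted p = 0.767). Of all genes, 6.35% were higher and 5.68% lower without overlap, and 1.66% were called with the block. RELA was also higher without overlap, with a log2 fold change of 0.17 (adjusted p = 0.841, limma). SQSTM1, the autophagy receptor p62 that TRIB3 binds, was at 0.32 on the same scale (adjusted p = 0.772), and STK40, a pseudokinase gene related to the Tribbles genes, had 0.07 (adjusted p = 0.954).

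**Figure D4:**
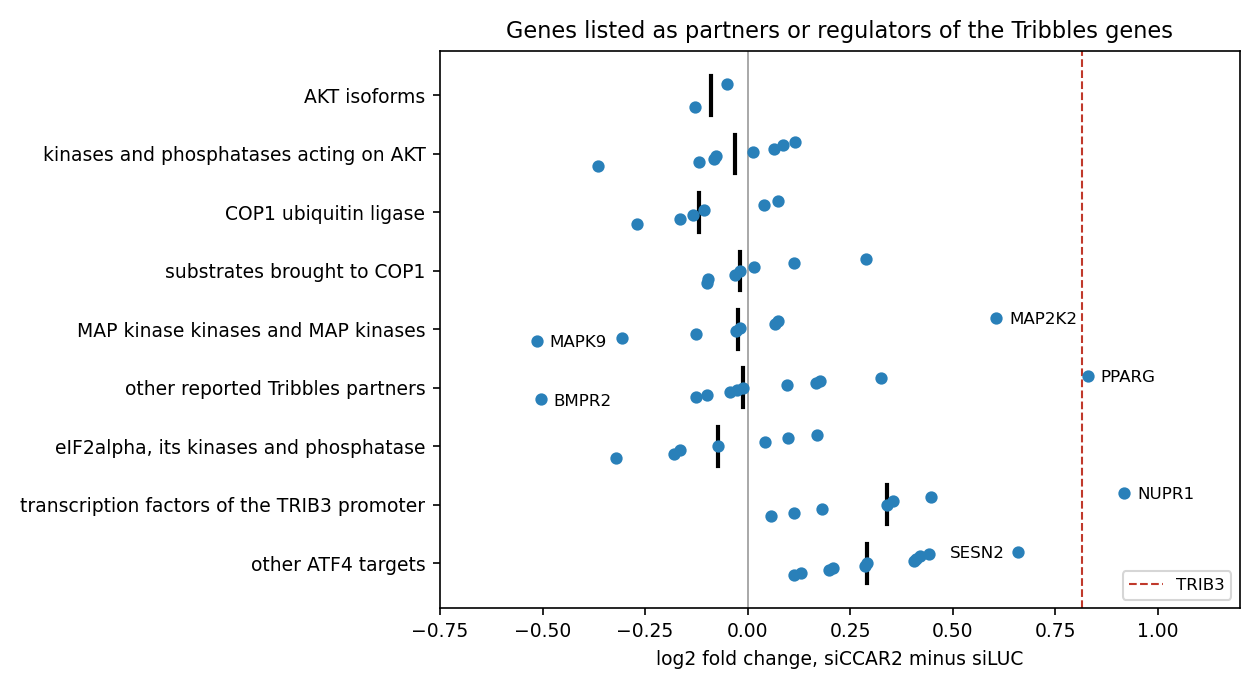
Log2 fold change, siCCAR2 minus siLUC (horizontal axis), of each tested gene in 9 lists (1 point per gene, vertical bar at the list's median), with TRIB3 as a dashed line at 0.82. The lists of transcription factors of the TRIB3 promoter and of other ATF4 targets lay wholly above 0 (medians 0.34 and 0.29), whereas the other lists held genes on either side of 0 or, for the AKT isoforms, 2 genes just below it.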

How the data were processed

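Total RNA of 3 siCCAR2 and 3 siLUC cultures, described as independent triplicates, was hybridized to 6 bead arrays (Human HT12_v4). The files that the authors deposited hold a non-normalized mean bead intensity per probe, not log-transformed, and a p-value of detection against negative control beads. The authors also deposited normalized intensity values, which are quantile normalized on a linear scale. The labels name BeadStudio 3.8 and the methods GenomeStudio for the signals. RNA extraction and labelling are also given differently, as an FFPE RNeasy kit with a microRNA labelling guide in the labels and as Qiazol, an RNeasy clean-up and the TotalPrep kit in the methods. The methods' log2 transformation and robust spline normalization is not what the deposited table holds, and it was not run here.

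Of 47321 probes, 30112 carried 1 gene symbol, 8 several and 17201 none, and those with 1 were used. Signals were log2 transformed and quantile normalized, with no background correction. Probes with a detection p under 0.01 in at least 1 array were kept (16021), and the probe detected in most arrays, then that with the highest interquartile range, stood for each gene. Median signals were 106 to 123 per array. With 3 arrays per group, their number limits the precision. The linear model of limma 3.58.1 with empirical Bayes moderation (R 4.3.3) was fitted to all 12013 genes, with Benjamini-Hochberg adjustment. Exact permutation tests were two-sided, over 20 regroupings of the arrays for differences and over the 720 orderings of 6 arrays for correlations. Python 3.11.15 and matplotlib 3.10.9 were used for figures.

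The members and all gene lists were chosen with earlier results of these data known. Members, the genes of the lists and the 5 genes most correlated with each member could be named. Of each list, counts and the median are given. Some genes of the lists are not reported here. Numbers that name arrays within a group do not pair them, and the pairing D with A, E with B and F with C comes from the correlation of deviations. The study calls its own comparison paired, without naming the pairs in the sources used here. The alternatives run were background correction by neqc (offset 16), the deposited normalized table, cyclic loess, median scaling, other filters and probe choices, a variance trend, array weights, a replicate block under 6 pairings, stricter thresholds and leaving out each array. The block combined with another normalization or without 1 pair was added after the data had been seen.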

Additional observations from a re-analysis of the deposited data

How the results depend on the processing

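TRIB3 kept its direction under all 29 alternatives, many of which could not move its log2 fold change. This was 0.50 to 1.02 when 1 array was left out. TRIB3 was called under 5 alternatives, all with arrays D and A, E and B, and F and C as a replicate block: 0.82 (adjusted p = 0.0137, limma), 0.82 on the deposited normalized table (0.0140), 0.81 after cyclic loess (0.0142), 0.96 without D and A (0.0404) and 0.94 without E and B (0.000905). With that block it was not called without F and C (0.54, adjusted p = 0.0590), after neqc (0.86, 0.107) or after median scaling (0.67, 0.166). Without a block its adjusted p was 0.136 to 0.999. Median scaling alone moved the median of all genes to -0.11, and TRIB3 was then at 0.67, TRIB1 at -0.13 and TRIB2 at -0.34. Its block called 22 genes higher and 41 lower, against 120 higher and 80 lower after quantile normalization.

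TRIB1 turned positive after neqc with and without the block (0.0012), without A (0.20), C (0.099) or E (0.11), and in the block without D and A (0.12) or F and C (0.074), with a range of -0.30 to 0.20. TRIB2 turned positive without A (0.02), C (0.05) or E (0.16), and was -0.67 without B. TRIB1 minus TRIB2 turned to -0.044 without E and was at most 0.42 with 1 array left out. TRIB3 minus TRIB1 ranged over 0.53 to 1.05 and TRIB3 minus TRIB2 over 0.80 to 1.42. The cause was not tested.

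Of 12013 genes, 3 were called (780 at an unadjusted p under 0.05). The counts were 0 after neqc (755), 0 after median scaling (522), 0 with the probe of highest mean signal (709), 0 at a fold of 2 and an adjusted p of 0.01, 18 with array weights and 0 to 7 with 1 array left out. With the block, 200 genes were called, 68 after neqc, 197 on the deposited table, 204 after cyclic loess and 63 after median scaling, and 71, 509 and 171 without D and A, E and B, and F and C. The other 5 pairings called 0 in 4 cases (380 to 647 at an unadjusted p under 0.05) and 15 in 1. The block changed no call of TRIB1 or TRIB2, and the arrays are not paired by their labels. Robust spline normalization was not run.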
